A study of Mus musculus with 15 samples.

Results

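Cultures of mouse spermatogonial stem cells were compared at 4 h after GDNF and GFRalpha1 had been returned to them, following 18 h without both factors, with cultures that had been maintained on the factors throughout. The comparison covers 6 of the 15 arrays of the study, chosen by their titles: 3 arrays of 4 h replacement and 3 of maintained cultures. The question is which transcripts were still away from the maintained level at 4 h, and which lay beyond it. Spermatogonial stem cells are the germline stem cells of the testis, and the cultures were germ cell cultures enriched for them, set up from C57BL/6 males aged 6 days.

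The 4 h replacement cultures had spent 18 h without GDNF and GFRalpha1 and then received both again for 4 h. The maintained cultures were kept without a break in a defined medium free of serum that held GDNF, GFRalpha1 and bFGF. Values of the 3 arrays from the end of the 18 h withdrawal and of 3 arrays each at 2 h and 8 h of replacement are given beside the comparison. The labels name bFGF for the maintained cultures and do not say whether it was present in the others. They do not say whether feeder cells were used, nor whether the 3 arrays of a group came from separate cultures, so the p-values may measure technical spread. No group was kept without the factors for longer than 18 h, so effects of the returned factors, of handling and of the added time in culture cannot be told apart.

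GDNF is a secreted ligand that binds GFRalpha1 at the cell surface, and together they engage the receptor tyrosine kinase RET. RET signals through SRC family kinases, PI3K and the RAS to ERK cascade, and in spermatogonial stem cells this controls transcription factor genes that maintain the stem cell state, among them Bcl6b, Etv5, Lhx1 and Id4. Immediate-early genes such as Fos and the Egr family are transcribed shortly after such signalling begins, and genes such as Dusp6 and the Sprouty family then restrain it. GFRalpha1 added to the medium is the soluble co-receptor, and bFGF is a fibroblast growth factor that also signals through ERK.

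The arrays carried 45101 probe sets, and 13083 named genes were tested. Signal is the MAS5 intensity, which had been brought to a trimmed mean of 150 on each array. Of 15 tested germ cell markers none was called between 4 h and maintained cultures, against 0.955% of all genes. The median log2 difference of the 15 was -0.05, and their summed signal was 18467 to 19404 at 4 h against 17068 to 19509 in maintained cultures. Dazl, a germ cell RNA-binding protein, averaged 7169.5 ± 423 at 4 h and 6875 ± 1122 in maintained cultures (SD, n = 3 each), and the stem and progenitor cell factor Zbtb16 averaged 1904 ± 232 at 4 h and 1414 ± 32.7 in maintained cultures. Markers of the labelled germ cells were thus present at both conditions, although Nanos2, Nanos3 and Rhox10 were not tested. The 3' to 5' ratio of actin probe sets, a measure of RNA integrity, ran from 1.12 to 1.75 at 4 h, highest in replicate 3, against 1.15 to 1.34 in maintained cultures.

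At 4 h, 125 genes differed from maintained cultures at an adjusted p under 0.05 in limma, which is 0.955% of those tested. Of these, 74 (0.566%) were higher and 51 (0.39%) lower, and 50 differed by at least 2-fold, 35 of them higher and 15 lower. The 95% interval of the log2 difference lay wholly within 2-fold of maintained cultures, between -1 and 1, for 11742 genes (89.8%). The interval of a further 1233 genes (9.42%) reached past 2-fold without a call, so a change of that size could not be told from none. The median over all genes was 0.01. For the 18 h withdrawal, with the same maintained arrays, 1052 genes (8.04%) were called, 551 higher (4.21%) and 501 lower (3.83%), and for 8 h against maintained cultures 63 (0.482%). Between 4 h and the withdrawal arrays 346 genes (2.64%) were called, 227 higher (1.74%) and 119 lower (0.91%). With arrays shifted to 1 median, 265 of 911 calls on withdrawal and 332 of 371 between 4 h and withdrawal were higher, while the 4 h split against maintained cultures was 56 higher and 38 lower. The 4 h count rests on few arrays: it was 26 without 4 h replicate 3, 33, 65 and 75 without maintained replicates 3, 2 and 1, and 314 without withdrawal replicate 3, whose actin ratio was 2.77. It was 74 when only the 6 arrays were fitted and 529 when arrays were weighted by quality.

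**Figure D1:**
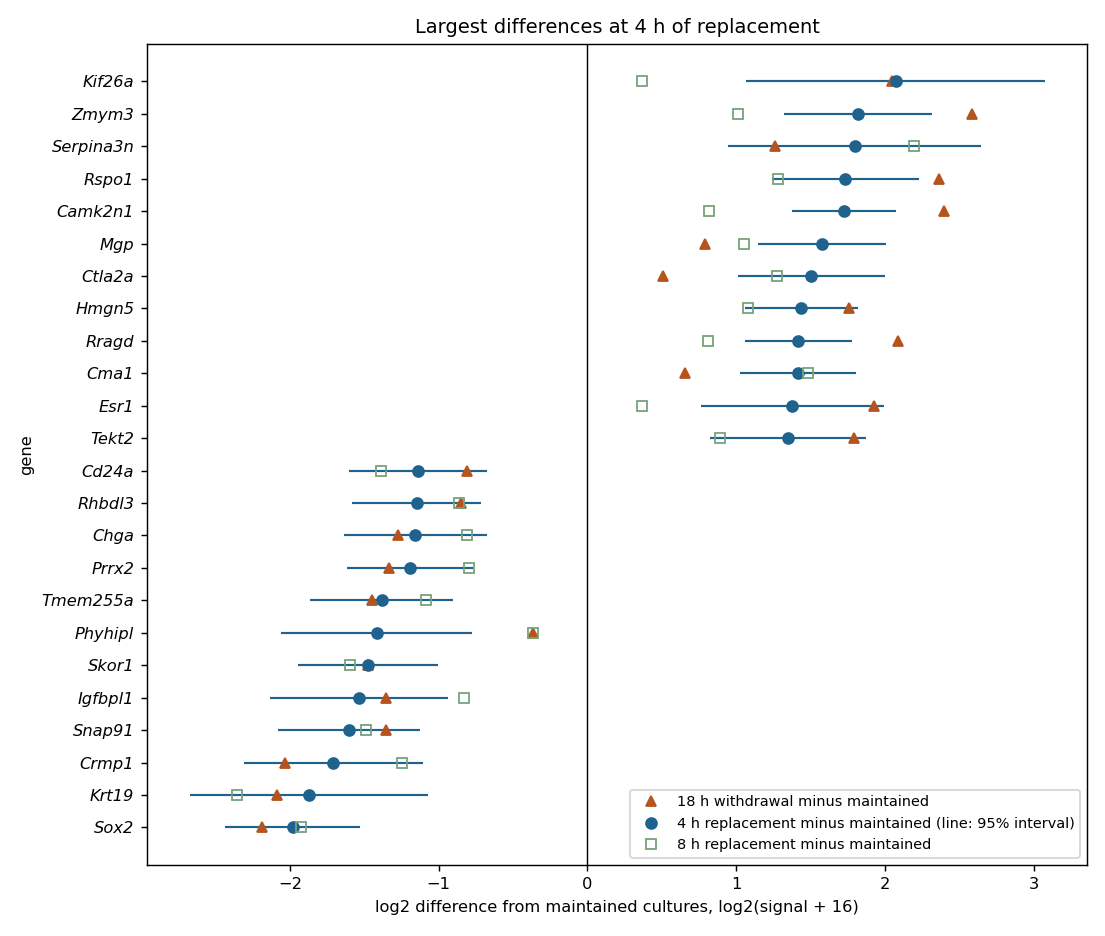
Log2 differences on the horizontal axis, 4 h replacement minus maintained (circles, with lines for the 95% intervals), for the 12 largest rises and 12 largest falls among called genes, beside 18 h withdrawal (triangles) and 8 h replacement (squares) minus the same maintained arrays. At 4 h Sox2 at -1.98 lies farthest below 0 and Kif26a at 2.07 farthest above, with the widest interval.

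Genes that were high after withdrawal and had not come down to the maintained level at 4 h were led by Camk2n1, Zmym3, Rspo1, Hmgn5 and Rragd. Camk2n1, an inhibitor of the calcium and calmodulin-dependent kinase CaMKII, gave signals of 647, 441 and 548 at 4 h against 145, 164 and 148 in maintained cultures. The groups did not overlap, and the 4 h arrays were 3.30-fold higher (log2 difference 1.72, 95% interval 1.37 to 2.07, limma adjusted p = 0.000118). Its mean was 875 after withdrawal, 641 at 2 h, 546 at 4 h and 281 at 8 h, so the 4 h cultures lay on the way down. The 4 h level was below that of withdrawal (log2 difference -0.67, adjusted p = 0.0411), and at 8 h it remained above maintained cultures (0.81, adjusted p = 0.037). A second, dimmer Camk2n1 probe set was not called, with a log2 difference of 0.04.

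Zmym3, a zinc finger protein of histone-modifying corepressor complexes, read 447, 366 and 641 at 4 h against 107, 112 and 153 in maintained cultures, 3.53-fold higher with no overlap (adjusted p = 0.000919). Hmgn5, a nucleosome-binding protein, read 743, 648 and 714 against 251, 241 and 254, 2.71-fold higher (adjusted p = 0.000919), with groups that were tight and far apart. Both genes thus encode proteins that act at chromatin. Rspo1, a secreted protein that strengthens WNT signalling, read 168, 112 and 132 at 4 h against 29.4, 43.6 and 19 in maintained cultures, and was 3.32-fold higher (adjusted p = 0.00123). Rragd, the RagD GTPase that brings mTORC1 to the lysosome, read 707, 629 and 806 against 226, 280 and 266 and was 2.67-fold higher (adjusted p = 0.000824). Each of these genes was called higher after withdrawal as well, by 2.36 log2 units for Rspo1, 2.58 for Zmym3, 1.76 for Hmgn5 and 2.08 for Rragd, in a comparison with the same maintained arrays. None of the 5 lost its call when any 1 of the 6 arrays was left out. Rragd was not called (adjusted p = 0.14) when its probe sets were averaged.

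**Figure D2:**
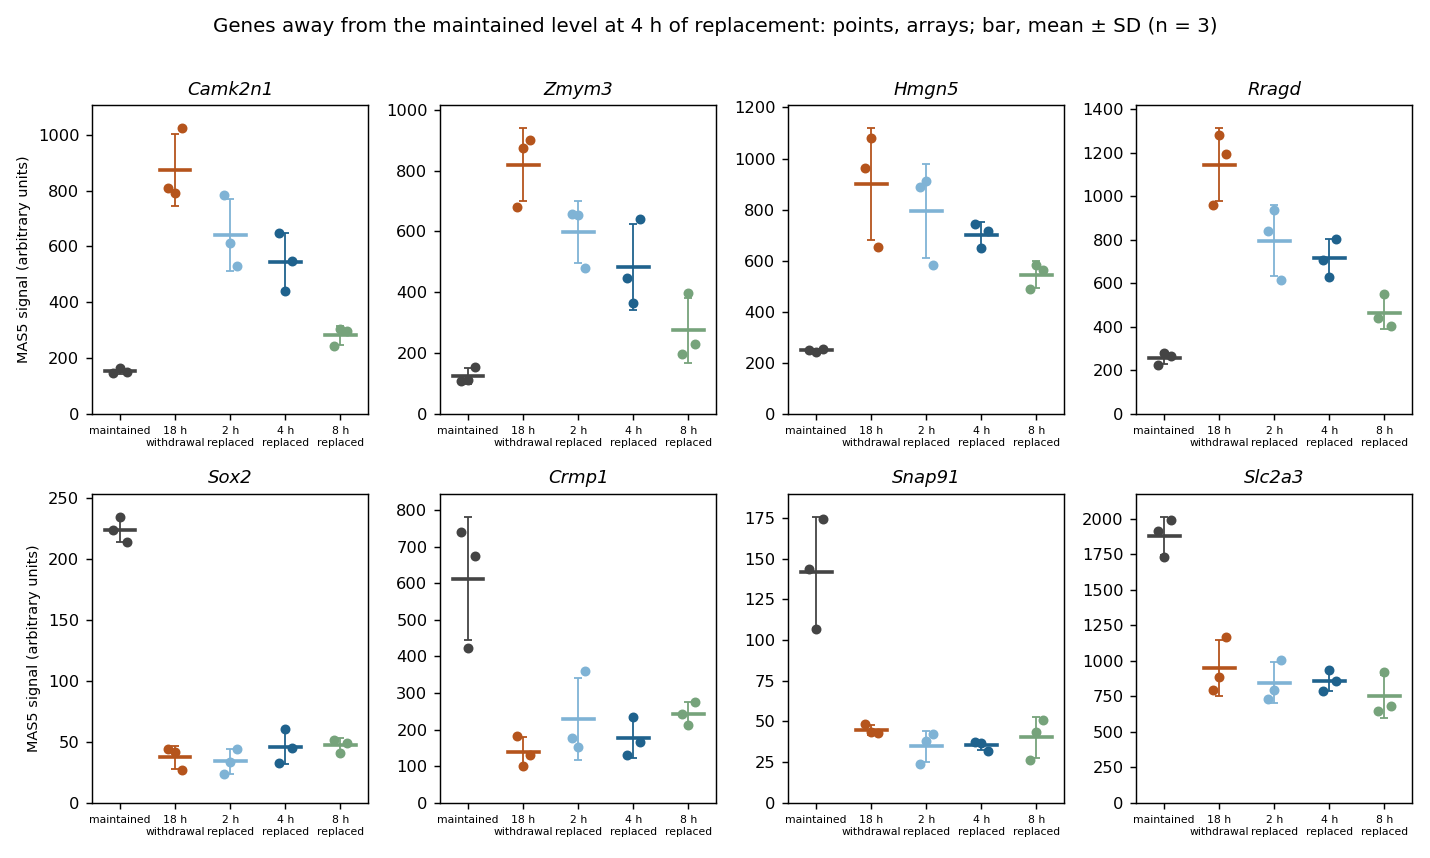
Signal of each array (points, MAS5 signal in arbitrary units) and group mean with SD (bars) for 8 genes away from the maintained level at 4 h, over maintained cultures, 18 h withdrawal and 2, 4 and 8 h of replacement. Camk2n1 averaged 546 at 4 h against 152 in maintained cultures, and Sox2 averaged 45.9 at 4 h against 224 in maintained cultures.

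Further genes were still high at 4 h with wider errors. Kif26a, an atypical kinesin known in mouse enteric neurons as a restraint on GDNF and RET signalling, read 70.4, 56.3 and 128 at 4 h, against 2.5, 10.3 and 9 in maintained cultures. The groups did not overlap, with a log2 difference of 2.07 (95% interval 1.07 to 3.07, adjusted p = 0.0478). Its maintained signals lie under the filter level of 30.5, so the fold of 4.20 depends on the constant of 16 added before the logarithm. The estrogen receptor gene Esr1 read 92.6, 48.3 and 94.5 at 4 h against 7.9, 20.7 and 34.3 (2.60-fold, adjusted p = 0.0302), and the flagellar tektin gene Tekt2 read 59.5, 43.1 and 44 against 7.7, 3.6 and 19 (2.54-fold, adjusted p = 0.0137), with maintained means under the same level for both. Upp1, uridine phosphorylase, read 136, 83.1 and 117 at 4 h and 34.6, 43.1 and 46.1 in maintained cultures, 2.21-fold higher (adjusted p = 0.021). Calls of these 4 genes rested on single arrays. Kif26a lost its call without each of the 6 arrays in turn (adjusted p 0.0606 to 0.249) and Upp1 without every one but 4 h replicate 2 (0.0648 to 0.108). Esr1 lost it without maintained replicates 1 and 2 and 4 h replicates 1 and 3 (0.0822 to 0.158), and Tekt2 without maintained replicate 2 and 4 h replicate 3 (0.0648 and 0.0574). A second, dimmer Esr1 probe set was not called, with a log2 difference of 0.09 (95% interval -0.96 to 1.14). Esr1 also lost its call when its probe sets were averaged.

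The largest shortfall at 4 h was that of Sox2, a transcription factor of pluripotent and neural stem cells. Its signals were 32.3, 60.8 and 44.6 at 4 h, against 224, 235 and 214 in maintained cultures. The groups were far apart, and the 4 h arrays were 3.95-fold lower (log2 difference -1.98, 95% interval -2.44 to -1.53, adjusted p = 0.000334). Sox2 averaged 37.3 after withdrawal, 33.8 at 2 h, 45.9 at 4 h and 47.3 at 8 h, so its mean stayed between 33.8 and 47.3 from the end of withdrawal through 8 h. Against withdrawal, the 4 h log2 difference was 0.21 (adjusted p = 0.624), and at 8 h Sox2 remained lower than in maintained cultures (-1.93, adjusted p = 0.000822).

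Snap91, Skor1, Crmp1 and Chga were also among the 12 largest falls. Snap91, which assembles clathrin coats at synapses, read 37, 36.4 and 31.9 at 4 h against 144, 107 and 174 in maintained cultures, 3.04-fold lower (adjusted p = 0.00174). Skor1, a corepressor of the SKI family, read 24.6, 44.2 and 65.3 against 129, 170 and 143, 2.78-fold lower (adjusted p = 0.00305). For both genes every 4 h array lay below every maintained array. Crmp1, a collapsin response mediator protein, read 129, 234 and 165 at 4 h against 742, 423 and 674, 3.27-fold lower (adjusted p = 0.00764), and Chga, the chromogranin A of secretory granules, read 68.9, 126 and 66.5 against 202, 235 and 185, 2.23-fold lower (adjusted p = 0.02). The 3 genes Snap91, Crmp1 and Chga averaged 35.1, 176 and 87 at 4 h, against 44.7, 138 and 77.3 after withdrawal. Crmp1 lost its call without maintained replicate 3 or 4 h replicate 3 (adjusted p 0.0541 and 0.0533), and Chga without every array but 4 h replicate 2 (0.0559 to 0.126).

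Other genes among the largest falls were the keratin gene Krt19 (3.66-fold lower, adjusted p = 0.0225), Igfbpl1, an insulin-like growth factor binding protein-like gene (2.90-fold, 0.0138), Tmem255a (2.61-fold, 0.00764), the homeobox gene Prrx2 (2.29-fold, 0.00764), the rhomboid gene Rhbdl3 (2.21-fold, 0.0116) and the surface glycoprotein gene Cd24a (2.20-fold, 0.0172). The mean of each also lay below maintained cultures after withdrawal, at 2 h and at 8 h. Phyhipl read 6, 20.8 and 27.7 at 4 h against 102, 65.5 and 54.2 in maintained cultures (2.67-fold lower, adjusted p = 0.032), and its mean was 73.8 in maintained cultures, 54 after withdrawal, 13.9 at 2 h and 52.8 at 8 h. The withdrawal difference of Phyhipl was not called (log2 -0.37, adjusted p = 0.496). The 4 h means of Krt19 (26.3), Igfbpl1 (17.4), Cd24a (29.1) and Phyhipl (18.2) lie under the filter level of 30.5. Their folds therefore depend on the constant of 16 added before the logarithm. With a constant of 1 Krt19 and Phyhipl lost their calls. The call of Phyhipl was lost without each of the 6 arrays in turn (adjusted p 0.0562 to 0.129), and that of Krt19 without every array but 4 h replicate 2 (0.0532 to 0.124). Igfbpl1 lost it without maintained replicate 3 or 4 h replicate 3 (0.0766 and 0.0818), Rhbdl3 without maintained replicate 2 or 4 h replicate 3 (0.0627 and 0.0818), Prrx2 without 4 h replicate 3 (0.0574) and Cd24a without 4 arrays, maintained replicates 2 and 3 and 4 h replicates 2 and 3 (0.0567 to 0.1).

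Of 16 tested genes of the glycolysis list 2 were called lower at 4 h, Slc2a3 and Hk2, against 0.39% of all genes. Slc2a3, the glucose transporter GLUT3, read 788, 935 and 859 at 4 h against 1917, 1734 and 1991 in maintained cultures, 2.16-fold lower with no overlap (log2 difference -1.11, adjusted p = 0.00305). The hexokinase gene Hk2 read 508, 630 and 552 against 1071, 952 and 961, 1.75-fold lower (adjusted p = 0.0114). The pair parted later: at 8 h Hk2 averaged 901 and was not called against maintained cultures (log2 -0.14, adjusted p = 0.622), while Slc2a3 averaged 749.6 and was called (-1.32, adjusted p = 0.00142). Of the 16 tested glycolysis genes 14 had a negative difference at 4 h, with a median of -0.40, while a second hexokinase gene, Hk1, was at 0.23 without a call. Hk2 lost its call without maintained replicate 3 or 4 h replicate 3 (adjusted p 0.0541 and 0.0667), whereas Slc2a3 kept it without any 1 of the 6 arrays.

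Genes that GDNF is known to control in these cells were partly still low at 4 h. Of the 8 such genes tested, 2 were called lower at 4 h (0.39% of all genes were) and none higher. The list came in part from work on these arrays and so is not independent evidence of its direction. The median log2 difference of the 8 was -0.35, against 0.01 over all genes. On withdrawal 6 of the 8 had been called lower (3.83% of all genes were), and between withdrawal and 4 h 6 were called higher (1.74% of all genes were). These comparisons share arrays with that of 4 h against maintained cultures. The 95% intervals of 6 of the 8 lay inside 2-fold, each by the probe set that represents the gene.

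The 2 genes called were Bcl6b, a transcription factor needed for stem cell maintenance, and Cxcr4, the receptor for the chemokine CXCL12. Bcl6b read 259, 296 and 289 at 4 h against 728, 465 and 696 in maintained cultures, 2.14-fold lower with no overlap (log2 difference -1.10, 95% interval -1.59 to -0.60, adjusted p = 0.032). Cxcr4 read 162, 229 and 144 at 4 h against 408, 427 and 346, 2.14-fold lower (-1.10, interval -1.57 to -0.62, adjusted p = 0.0258). Both had come up from withdrawal, where Bcl6b averaged 92.9 and Cxcr4 77.1: against the withdrawal arrays the 4 h log2 differences were 1.47 (adjusted p = 0.00452) and 1.04 (adjusted p = 0.0255). Id4, a helix-loop-helix protein that blocks DNA binding by its partners and is enriched in spermatogonia with stem cell activity, had a like course. It read 575, 765 and 621 at 4 h against 1119, 1527 and 1258, 1.96-fold lower (adjusted p = 0.0138), and 0.84 log2 units above withdrawal (adjusted p = 0.0229). At 8 h Bcl6b averaged 445, Cxcr4 207 and Id4 747, and none of the 3 was then called against maintained cultures. Their 8 h log2 differences were -0.47 (adjusted p = 0.311), -0.90 (0.0747) and -0.79 (0.0561). The missing calls therefore do not place them at the maintained level. Bcl6b lost its 4 h call without every array but maintained replicate 2 (adjusted p 0.0645 to 0.151), and Cxcr4 without every array but 4 h replicate 2 (0.0688 to 0.144). Id4 lost it without maintained replicates 2 and 3 and 4 h replicate 3 (0.059 to 0.0815), and its other 2 probe sets, with log2 differences of -0.77 and -0.43, were not called.

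Etv5, Lhx1, Egr2 and Pou3f1, transcription factor genes of the same list, were not called at 4 h. Etv5 read 896, 831 and 624 at 4 h against 1486, 747 and 1090 in maintained cultures, overlapping groups with a log2 difference of -0.45 (interval -0.92 to 0.01). Lhx1 read 272, 407 and 367 against 403, 547 and 503, also overlapping, with -0.46 (interval -0.90 to -0.03, adjusted p = 0.371). The intervals of both lay inside 2-fold, as did that of Egr2 at -0.14 (-0.54 to 0.27) and of Pou3f1 at -0.16 (-0.50 to 0.18). These intervals are of the probe set that represents each gene. Intervals of other probe sets reached past 2-fold for Etv5 (-1.08 to 0.69 and -1.24 to 0.66), Lhx1 (-1.13 to -0.05) and Egr2 (-1.34 to 0.28), without a call. For Pou3f1 the other interval did not (-0.90 to 0.04). Egr2 averaged 927 at 4 h against 1007 in maintained cultures and 191 after withdrawal, and Pou3f1 338 at 4 h against 379 in maintained cultures and 162 after withdrawal. Pou3f1, however, was called lower at 8 h (log2 -0.94, adjusted p = 0.0115). The receptor genes were not called either. Gfra1, which encodes the GDNF co-receptor, read 761, 1157 and 941 at 4 h against 1436, 1425 and 1628, with no overlap and a log2 difference of -0.66 (interval -1.08 to -0.24, adjusted p = 0.136). Other Gfra1 probe sets were at -0.95 and -0.91, also without a call. Ret read 757, 369 and 278 against 905, 410 and 574, with an interval from -1.18 to 0.25, too wide to place it within 2-fold.

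**Figure D3:**
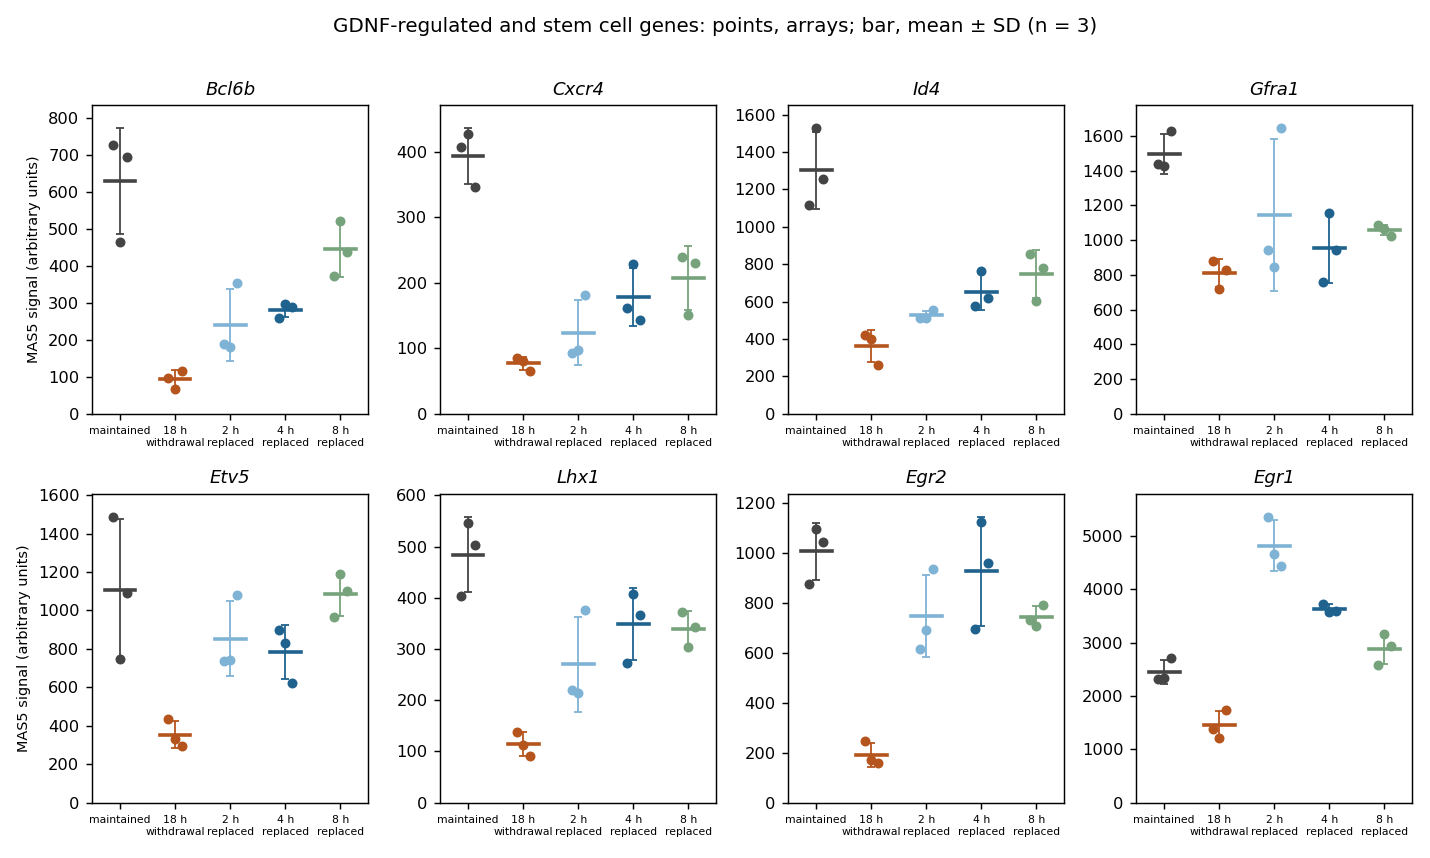
Signal of each array (points, MAS5 signal in arbitrary units) and group mean with SD (bars) for 8 GDNF-regulated and stem cell genes, over maintained cultures, 18 h withdrawal and 2, 4 and 8 h of replacement. Bcl6b averaged 281 at 4 h, below the 630 of maintained cultures, while Egr2 averaged 927 at 4 h and 1007 in maintained cultures.

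Immediate-early genes are the first transcribed after growth factor signalling. Of 28 tested, 1 was called higher at 4 h, against 0.566% of all genes, and none lower. Of the 28, 18 had a positive and 10 a negative difference, and the median was 0.16. The arrays did not overlap for 3 genes that were higher and 4 that were lower at 4 h. Over all genes the arrays of 17.2% did not overlap, in either direction. Intervals of 25 lay inside 2-fold. On withdrawal 13 of the 28 had been called lower, against 3.83% of all genes. The one called at 4 h was Egr4, an early growth response factor, which read 1276, 671 and 828 at 4 h against 514, 438 and 416 in maintained cultures, 1.93-fold higher with no overlap (log2 difference 0.95, adjusted p = 0.0182). Egr4 had also been called higher on withdrawal (1.19, adjusted p = 0.000879), and against withdrawal its 4 h log2 difference was -0.25 (adjusted p = 0.481). Egr4 lost its call without maintained replicates 2 and 3 and 4 h replicate 3 (adjusted p 0.0696 to 0.105). Egr1 read 3733, 3577 and 3589 at 4 h against 2314, 2340 and 2715, with no overlap, but its log2 difference of 0.57 (interval 0.26 to 0.87) was not called (adjusted p = 0.0762). Egr1 averaged 1448 after withdrawal, 4818 at 2 h, 3633 at 4 h and 2889 at 8 h. Fos averaged 844 at 4 h and 699 in maintained cultures, with an interval from -0.20 to 0.66.

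Egr3 was measured by a pair of probe sets that differed in call. The one that represents the gene in the counts read 124, 66.1 and 163 at 4 h against 151, 63.3 and 95.6 in maintained cultures and was not called (log2 difference 0.16, interval -0.46 to 0.78). The other, described after its values were seen and tested among all probe sets, read 264, 322 and 261 at 4 h against 76.9, 90.2 and 109. Its groups did not overlap, and at 4 h it was 2.77-fold higher than in maintained cultures (log2 difference 1.47, interval 1.01 to 1.93, adjusted p = 0.00772 over all probe sets). That probe set read 27.4, 29.4 and 9.7 after withdrawal, below maintained cultures (log2 difference -1.53, adjusted p = 0.00115). It averaged 213 at 2 h, 282 at 4 h and 104 at 8 h, so at 4 h it lay on the far side of the maintained level from withdrawal, and at 8 h was not called (0.15, adjusted p = 0.773). Tspan8, a tetraspanin gene, also had probe sets that disagreed. The chosen one was not called (log2 -0.25, adjusted p = 0.505), and another read 45.2, 74.8 and 65.2 at 4 h against 118, 229 and 144 in maintained cultures, 2.27-fold lower (adjusted p = 0.0373 over all probe sets).

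At 4 h 0.955% of all genes were called in either direction. Of 24 tested genes that restrain ERK signalling, or lie directly downstream of it, none was called. Their median log2 difference was -0.15, the intervals of 21 lay inside 2-fold, and on withdrawal 14 of the 24 had been called lower, against 3.83% of all genes. Dusp6, a phosphatase that inactivates ERK, read 1178, 877 and 719.8 at 4 h against 1576, 712 and 1080 in maintained cultures, overlapping groups with a log2 difference of -0.23 (interval -0.77 to 0.31). Spry4, a Sprouty inhibitor of receptor signalling, averaged 309 at 4 h, against 349 in maintained cultures and 111 after withdrawal, with a log2 difference of -0.16 (interval -0.57 to 0.25). Its relative Spry2 differed in size but not in call: it read 303, 697 and 476 at 4 h against 618, 1176 and 985, with 1 of the 4 h arrays inside the maintained range and a log2 difference of -0.92 (interval -1.46 to -0.38, adjusted p = 0.0986). The ETS factor Etv4 (-0.48, interval -1.12 to 0.16) and the growth regulator Myc (-0.57, interval -1.02 to -0.11, adjusted p = 0.272) were also below maintained cultures without a call, and neither interval lay inside 2-fold. The cyclin gene Ccnd1 averaged 1234 at 4 h and 1361 in maintained cultures, with an interval from -0.52 to 0.25.

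Mgp, Serpinb1a, Ctla2a and Serpina3n were called higher than in maintained cultures at 4 h and had 4 h means above those of withdrawal. Mgp, the matrix Gla protein that blocks calcification, read 456, 454 and 480 at 4 h against 139, 147 and 148 in maintained cultures. The 2 groups were tight and apart, with 2.98-fold higher signal at 4 h (log2 difference 1.58, interval 1.15 to 2.01, adjusted p = 0.000919). Mgp averaged 266 after withdrawal, and the 4 h arrays exceeded those by 0.79 log2 units (adjusted p = 0.0482). Serpinb1a, an inhibitor of neutrophil proteases, read 148, 134 and 168 at 4 h against 61.7, 42.3 and 45.3, 2.53-fold higher (adjusted p = 0.00174), and Ctla2a, a cysteine protease inhibitor, read 95, 92.2 and 116 against 22.2, 34.3 and 20, 2.84-fold higher (adjusted p = 0.0042). Both also exceeded withdrawal at 4 h, by 0.88 (adjusted p = 0.0253) and 1.00 (adjusted p = 0.0347). The secreted serpin gene Serpina3n read 539, 289.6 and 445 at 4 h against 195, 29.7 and 179 (3.47-fold, adjusted p = 0.0438), with maintained replicate 2 far below replicates 1 and 3. Against withdrawal its 4 h log2 difference was 0.54 and not called (adjusted p = 0.481). Serpina3n lost its call without maintained replicates 2 and 3 and 4 h replicates 1 and 3 (adjusted p 0.0541 to 0.171), and the calls of Mgp, Serpinb1a and Ctla2a were kept without any 1 of the 6 arrays.

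A pair of genes of mast cell granule proteases rose together, Cma1, which encodes chymase, and Cpa3, the mast cell carboxypeptidase. Their promoters are shown because the pair moved together and had similar courses. The windows hold the 250 bases before each start in RefSeq GRCm38.p6, both on the minus strand, at chr14:55944676-55944925 for Cma1 and chr3:20242182-20242431 for Cpa3. Capitals mark the match to GATAA on either strand, the letters of the core motif of GATA factors, which lies 194 bases before the start of Cma1 and 45 bases before that of Cpa3.
Cma1: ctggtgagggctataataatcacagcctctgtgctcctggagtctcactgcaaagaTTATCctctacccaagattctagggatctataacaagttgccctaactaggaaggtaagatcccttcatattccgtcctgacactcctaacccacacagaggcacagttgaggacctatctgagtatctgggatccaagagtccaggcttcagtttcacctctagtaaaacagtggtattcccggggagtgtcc
Cpa3: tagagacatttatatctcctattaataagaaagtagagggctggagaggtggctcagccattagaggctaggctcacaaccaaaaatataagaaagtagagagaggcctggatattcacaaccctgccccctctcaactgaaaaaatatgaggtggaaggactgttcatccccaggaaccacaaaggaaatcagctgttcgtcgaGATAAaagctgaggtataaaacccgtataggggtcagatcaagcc
Of 32851 windows of this length, 22.6% hold such a match, so its presence in both describes the letters and not a site.

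Cma1 read 863, 841 and 945 at 4 h against 320, 301 and 345 in maintained cultures, 2.66-fold higher with no overlap (log2 difference 1.41, interval 1.02 to 1.80, adjusted p = 0.000919). Cpa3 read 1064, 1242 and 1353 against 615, 568 and 474, 2.18-fold higher (1.12, interval 0.73 to 1.52, adjusted p = 0.00764). Neither had come back down at 8 h, when Cma1 averaged 938 and Cpa3 1227. Cpa3 was not called on withdrawal (0.17, adjusted p = 0.642), while Cma1 was (0.65, adjusted p = 0.0374). Cpa3 lost its 4 h call without maintained replicate 3 or 4 h replicate 3 (adjusted p 0.0541 and 0.0574), and Cma1 kept it without any 1 of the 6 arrays. These were the 2 called among 11 tested markers of blood and endothelial cells, against 0.566% of all genes called higher. Of the 11, 8 were positive, with a median of 0.11. The mast cell protease genes Mcpt4 (1.27, adjusted p = 0.0503) and Tpsb2 (1.00, adjusted p = 0.244) were also higher, without a call. At 8 h they were at 1.58 and 1.71, and 4 of the 11 were then called higher, against 0.275% of all genes. The endothelial gene Kdr (-0.57) was not called at 4 h, and the defining markers Ptprc, Pecam1, Vwf and Itgam were not tested. The summed signal of the 11 was 3577 to 4201 at 4 h and 1743 to 2003 in maintained cultures, with no marker at 0, and their part in the result was not tested. That sum includes the 2 called genes: Cma1 averaged 883 at 4 h and 322 in maintained cultures, and Cpa3 1220 and 552.

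Fibroblast markers lay higher at 4 h. Of 18 tested, 3 were called higher, against 0.566% of all genes, and none lower, all 18 had a positive difference, and the median was 0.68. The arrays of 14 of them did not overlap, against 17.2% of all genes in either direction. Decorin, Dcn, read 814, 705 and 899 at 4 h against 349.5, 303 and 325 in maintained cultures, 2.40-fold higher (log2 difference 1.26, interval 0.79 to 1.73, adjusted p = 0.0106). The platelet-derived growth factor receptor gene Pdgfra read 267, 278 and 463 against 156, 164 and 87.6, 2.32-fold higher (adjusted p = 0.0153), although its other 2 probe sets, at 0.13 and 0.17, were not called. The collagen gene Col6a1 read 1178, 1009 and 1174 against 675, 432 and 494, 2.10-fold higher (adjusted p = 0.049). The collagen genes Col3a1 (1.06, adjusted p = 0.0503) and Col1a2 (0.94, adjusted p = 0.0551), named after their values were seen, were not called although their arrays did not overlap, and Acta2 (0.05) was close to 0. On withdrawal none of the 18 was called and the median was 0.05, and at 8 h the median was 0.62 with 1 called.

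The summed signal of the 18 markers was 18147 to 21528 at 4 h, against 10640 to 13887 in maintained cultures, with no marker at 0 on any array and Lum, Fbn1 and Tagln not tested. It was 10084 to 15868 after withdrawal, 6672 to 11449 at 2 h and 17633 to 21784 at 8 h, so the 4 h and 8 h arrays lay above every other array. In such bulk samples fewer or more cells of a type and less or more RNA per cell cannot be told apart, and the part of fibroblast RNA in the other differences was not tested. Sertoli cell markers were not called, 0 of 13, where 0.955% of all genes were called in either direction. Summed signals of the 13 were 1055 to 1161 at 4 h and 947 to 1023 in maintained cultures. Of 4 tested Leydig and peritubular markers none was called, with summed signals of 332 to 409.8 and 195 to 344, although Cyp11a1, the first enzyme of steroid synthesis, read 159, 96.8 and 159 at 4 h against 78.2, 28.8 and 57.5 (log2 1.16, adjusted p = 0.064). Dcn and Pdgfra each lost their call without maintained replicate 3 or 4 h replicate 3, with adjusted p of 0.0541 and 0.0754 for Dcn and 0.0875 and 0.103 for Pdgfra. Col6a1 lost it without every array but maintained replicate 1 (0.0811 to 0.193), and the count of 3 became 0 without maintained replicate 3 and 0 without 4 h replicate 3.

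**Figure D4:**
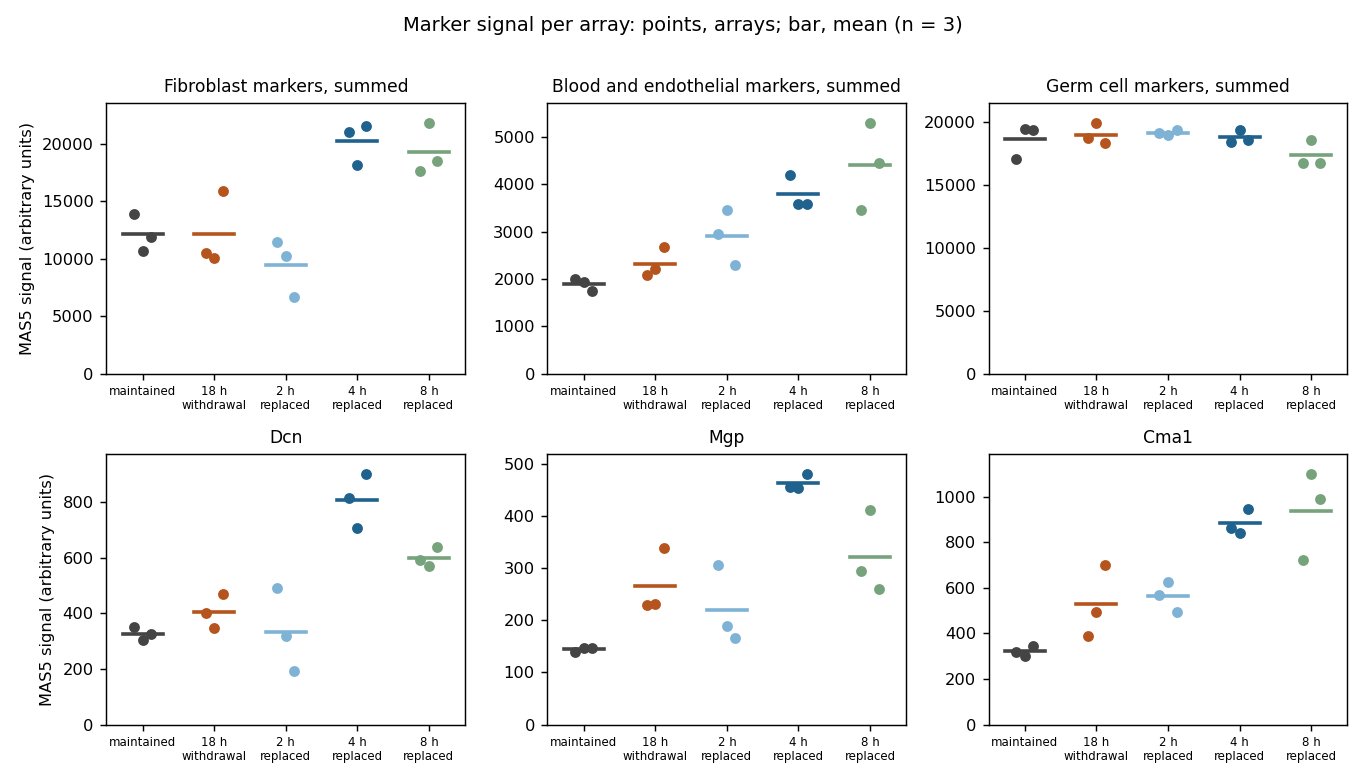
Summed MAS5 signal of fibroblast, blood and endothelial, and germ cell markers (top) and signal of Dcn, Mgp and Cma1 (bottom), in arbitrary units, with points for arrays and bars for group means, over maintained cultures, 18 h withdrawal and 2, 4 and 8 h of replacement. The 3 fibroblast sums at 4 h lie between 18147 and 21528, above the 3 of maintained cultures at 10640 to 13887.

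Some genes of stem cell and differentiation state were called at 4 h, where 0.955% of all genes were called in either direction. Of 30 tested genes of undifferentiated spermatogonia, 1 (Upp1) was called higher and 2 (Bcl6b and Id4) lower at 4 h, with a median of -0.23. The arrays did not overlap for 4 of the 30 that were higher and 8 that were lower. Over all genes the arrays of 17.2% did not overlap, in either direction. Among 15 genes of differentiating spermatogonia 1 was called, Dmrt1, a transcription factor that controls entry into meiosis. It read 2708, 2325 and 2596 at 4 h against 1702, 1666 and 1674 in maintained cultures, 1.51-fold higher with no overlap (log2 difference 0.59, adjusted p = 0.0302). Dmrt1 was already 0.56 log2 units higher after withdrawal (adjusted p = 0.0104) and averaged 1818 at 8 h. The receptor tyrosine kinase gene Kit, a mark of differentiating spermatogonia, read 207, 165 and 213 at 4 h against 182, 134 and 132, and was not called (0.36, interval 0.04 to 0.67), and Stra8, which is needed for meiosis, averaged 34.9 at 4 h and 45 in maintained cultures, with no call. None of 16 meiotic and haploid genes was called, among them the synaptonemal gene Sycp3 (0.48, interval 0.08 to 0.87) and the meiotic cohesin gene Smc1b (0.13, interval -0.13 to 0.39). Of 15 pluripotency genes Sox2 was the only one called, and Pou5f1, which encodes OCT4, averaged 97.3 at 4 h and 90.8 in maintained cultures. Dmrt1 lost its call without every array but 4 h replicate 2 (adjusted p 0.0664 to 0.129).

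The lists of cholesterol synthesis, amino acid supply, lysosome and mTORC1, and FOXO target genes had 1 called member each. Over all genes 0.955% were called at 4 h in either direction. Of 20 tested cholesterol synthesis genes, 18 had a negative difference at 4 h, the median was -0.24 and 19 intervals lay inside 2-fold. On withdrawal 13 of the 20 had been called lower, against 3.83% of all genes. The 1 still called at 4 h was Pmvk, phosphomevalonate kinase, which read 112, 124 and 144 at 4 h against 224, 242 and 251 in maintained cultures, 1.79-fold lower (log2 difference -0.84, adjusted p = 0.0292). Of 24 genes of amino acid supply and the ATF4 response, 1 was called, Asns, asparagine synthetase, which read 441, 602 and 539 at 4 h against 769, 793 and 809, 1.49-fold lower (adjusted p = 0.0478). Rragd was the 1 called of 26 lysosome and mTORC1 genes, of which 21 had a positive difference, with a median of 0.20. The lysosomal regulator Tfeb was not called (adjusted p = 0.0744), although its log2 difference of -1.57 was the lowest of that list. Pink1, a kinase that marks damaged mitochondria, was the 1 called of 28 FOXO target genes (18 positive, median 0.12), reading 154, 116 and 134 at 4 h against 83.3, 63.2 and 56.1 (1.81-fold higher, adjusted p = 0.0337). Pmvk lost its call without each of the 6 arrays in turn (adjusted p 0.0575 to 0.134), Asns without every array but 4 h replicate 2 (0.0937 to 0.163), and Pink1 without maintained replicates 2 and 3 and 4 h replicates 1 and 3 (0.0955 to 0.16).

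Genes of cell division did not pass the test at 4 h, where 0.955% of all genes were called in either direction. None of 29 G1/S genes was called, but 27 had a negative difference, with a median of -0.33, and 23 intervals lay inside 2-fold. Pcna, the sliding clamp of DNA replication, read 4962, 5200 and 3585 at 4 h against 5692, 7206 and 6765 in maintained cultures, apart but not called (log2 difference -0.53, interval -0.97 to -0.08), while the helicase gene Mcm7 averaged 6149.9 at 4 h and 6207 in maintained cultures. All 24 G2/M genes had intervals inside 2-fold, with a median of -0.02, and examples are Cdc20, an activator of mitotic protein destruction (0.21, interval -0.14 to 0.56), and Top2a, a DNA topoisomerase (0.08, interval -0.16 to 0.32). None of 30 genes of ribosome biogenesis and MYC targets was called, with 24 negative and a median of -0.13, and the nucleolar genes Npm1 (0.03) and Ncl (0.02) were near 0.

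Lists on signalling ligands and receptors, cell death and interferon had no called member, where 0.955% of all genes were called in either direction. At that share most lists of this size would hold no call. None of 23 tested genes of the GDNF and FGF families was called (median -0.08), with intervals inside 2-fold for Sdc4, a heparan sulphate proteoglycan (-0.15 to 0.61), and Hs2st1, a heparan sulphate sulphotransferase (-0.47 to 0.22). Of 22 p53 and apoptosis genes 0 were called (median -0.01), including the p53 regulator Mdm2 (0.01) and Ccng1, the cyclin G1 gene (0.24). Of 14 interferon genes 0 were called (median 0.12). B2m, the light chain of class I antigen presentation, read 3818, 4723 and 3929 at 4 h against 2440, 3217 and 2560, with arrays apart but a log2 difference of 0.60 that was not called (adjusted p = 0.29), and Irf1, an interferon regulatory factor, was at 0.13. Clu and Rhox5, examples of the Sertoli list, were at 0.24 and 0.59, and Star of the Leydig list at 0.41, all without a call.

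**Figure D5:**
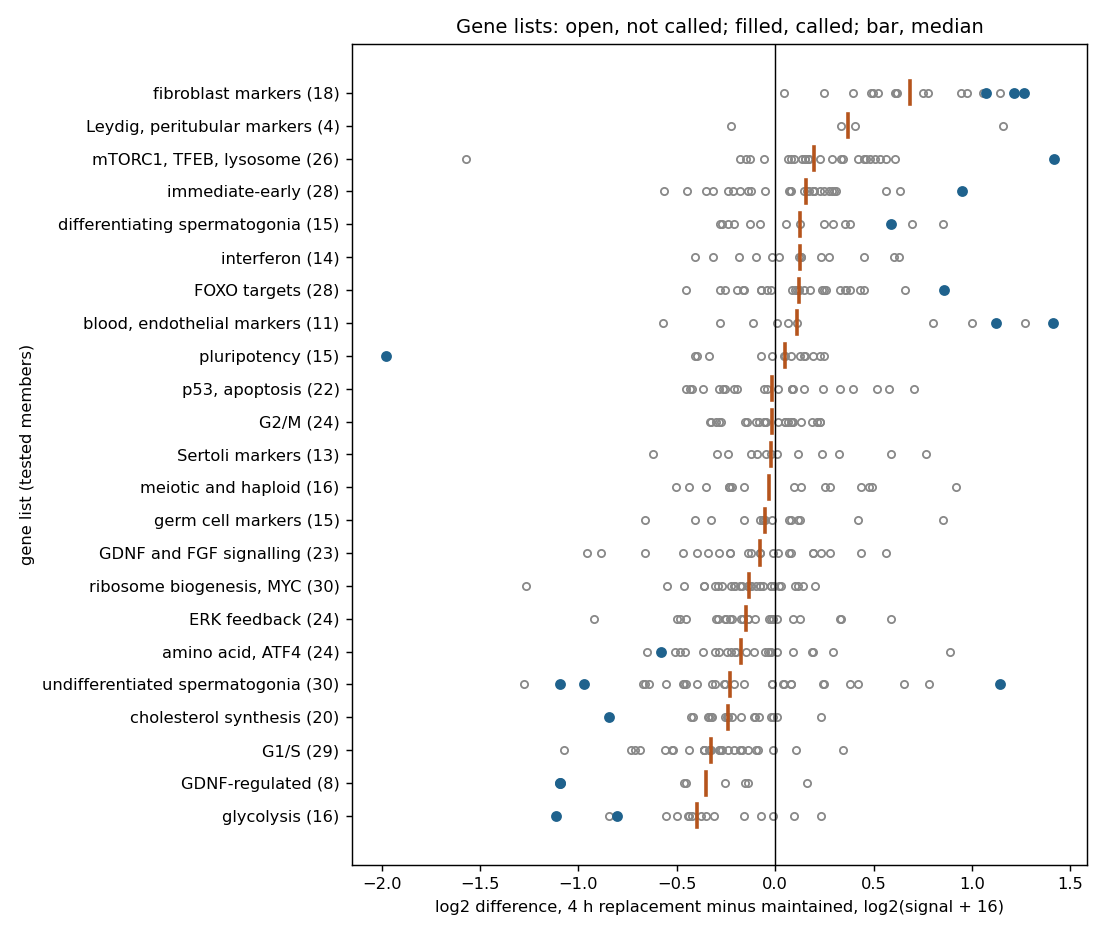
Log2 differences, 4 h replacement minus maintained, on the horizontal axis for the tested members of each gene list (points, filled where called, overlapping where equal) and the list's median (bar). Fibroblast markers have the highest median, 0.68, and all 18 lie above 0, while glycolysis genes have the lowest, -0.40.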

How the data were processed

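RNA was measured on 15 single-colour arrays, 3 in each of 5 groups taken from the sample titles. Per the submitters' processing notes the deposited signal, an intensity on a linear scale, was computed by the authors with MAS5, which summarises each probe set as 1 number. For the version, the array model and any scaling target, nothing is given in the sources used here. Every array had a mean of 150 over its middle 96% of probe sets. Median signal ran from 42.5 to 55.8, and arrays correlated with one another at r of 0.928 to 0.979 over probe sets. No 2 arrays were identical.

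Probe sets were named from the platform annotation: 34945 had 1 symbol, 932 several and 9160 none, apart from 64 controls. Of the single symbols, 34741 were found in RefSeq and 0 were changed. Signals were taken as log2 of signal plus 16, and 27022 probe sets were kept after removal of the dimmest 40%, those with a mean level below a signal of 30.5. Each gene took the probe set whose mean log2 value was highest. The 4154 unnamed or multiply named probe sets were tested apart among all 27022, with 9 called of 97 in all. The constant shrinks folds of dim genes.

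Means of the 5 groups were fitted with limma 3.58.1 in R 4.3.3 (lmFit, eBayes with a variance trend, 10 residual degrees of freedom). Two-sided p-values were adjusted over 13083 genes by the Benjamini-Hochberg method, and called means an adjusted p under 0.05. Of 4 comparisons, 3 give side values and share arrays with the one reported. Folds and log2 differences are limma estimates. The median standard error was 0.19, and the number of arrays limits precision. An exact permutation test of 3 against 3 arrays cannot go below p = 0.1. The code was tested on simulated data.

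The members, gene lists (506 genes in 23 lists, 420 tested) and naming rule were chosen with earlier results of these data known. Named were the 12 largest called rises and falls with arrays apart, up to 6 called genes each way beyond the withdrawal mean, 8 GDNF-regulated and 15 other preset genes, up to 4 called members of each list, and 2 bright members where a list had none. Alternatives changed the constant, filter, normalization, probe summary, variance model and arrays. Promoters came from RefSeq GRCm38.p6.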

Additional observations from a re-analysis of the deposited data

How the results depend on the processing

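Up to 18 alternatives bear on a single gene. Of the 40 named genes called at 4 h, 13 kept their call in every alternative that gave a value (Zmym3, Rspo1, Camk2n1, Mgp, Ctla2a, Hmgn5, Cma1, Sox2, Snap91, Skor1, Tmem255a, Serpinb1a and Slc2a3), and none of the 40 changed sign. Ctla2a, Sox2, Snap91 and Skor1 had 17, since they were not tested with the dimmest 60% left out. Leaving out 4 h replicate 3 ended 26 of the 40 calls. Of 39 named genes not called, Egr1, Spry2, Pcna, Rhox5 and Cyp11a1 gained a call under at least 1 alternative. Counts of called genes for 4 h against maintained cultures, 125 as reported, were 74 with only the groups compared and 529 with array weights, and 26 to 314 with 1 array left out. The 26 without 4 h replicate 3 shared 23 genes with the 125. For withdrawal against maintained cultures (1052) they were 313, 2297 and 517 to 1014. For 4 h against withdrawal (346) they were 13, 1609 and 56 to 620, and 182 with no filter on dim probe sets and 208 with no variance trend. For 8 h against maintained cultures (63) they were 180, 1280 and 13 to 276. With arrays shifted to 1 median the share of higher calls was 29.1% for withdrawal and 21.7% at 8 h against maintained cultures, and 89.5% for 4 h against withdrawal, where the counts as deposited gave 52.4%, 57.1% and 65.6%. With probe sets averaged it was 49% for 4 h against maintained cultures, where it had been 59.2%. At 8 h it was 44.7% after quantile normalization.

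Some named genes without a call changed sign. With 1 array left out the log2 difference of Egr2 ran from -0.29 to 0.052, Egr3 from -0.098 to 0.48, Dusp6 from -0.52 to 0.046, Spry4 from -0.36 to 0.028, Mcm7 from -0.097 to 0.040, Npm1 from -0.12 to 0.13, Ncl from -0.15 to 0.15, Mdm2 from -0.25 to 0.17, Irf1 from -0.15 to 0.39 and Dazl from -0.070 to 0.16. Quantile normalization gave Npm1 -0.094, Ncl -0.038 and Dazl -0.036. Averaged probe sets gave Npm1 -0.0085, Hs2st1 0.14, Mdm2 -0.18 and Ccng1 -0.091, and array weights gave Pou3f1 0.025, Ncl -0.097 and Mdm2 -0.15. The causes were not tested.

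Same-numbered arrays of 30 pairs correlated between -0.15 and 0.36 in their deviations from the group means, 7 of them over 0.1. Between 4 h and maintained cultures r was 0.36, 0.26 and -0.026 for numbers 1, 2 and 3, so not every pair was over 0.1, and the numbers were not taken to pair the arrays. With the replicate number as a block the count was 120 for 4 h against maintained cultures, 108 of them shared with the 125, and 1121, 372 and 56 in the other comparisons in the order above. Col6a1 lost its call under the block (adjusted p = 0.0708).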

Other observations

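Some called genes outside the naming rule, chosen after their values were seen, belong to other groups. Their calls were not followed gene by gene with single arrays left out. Of the 40 named calls, 26 were lost without 4 h replicate 3. The chemokine gene Ccl2, which attracts monocytes, read 327, 383 and 491 at 4 h against 162, 156 and 153 in maintained cultures, 2.38-fold higher with no overlap (limma adjusted p = 0.00263). The related chemokine gene Ccl7 read 63.5, 71.3 and 98.8 against 29, 12.7 and 30.7, 2.36-fold higher (adjusted p = 0.0169). The maintained mean of Ccl7, 24.1, lies under the filter level of 30.5, so its fold depends on the constant of 16. Ccl2 was not called on withdrawal (log2 difference 0.19, adjusted p = 0.571), and the 4 h arrays exceeded the withdrawal arrays by 1.06 (adjusted p = 0.00848). Cebpd, a transcription factor of the acute phase response, averaged 337 at 4 h and 152 in maintained cultures (2.09-fold higher, adjusted p = 0.0265), and its mean was 149 after withdrawal and 105 at 2 h. The detoxifying enzyme gene Mgst1 averaged 497 at 4 h and 204 in maintained cultures (2.33-fold, adjusted p = 0.00188), and the alcohol dehydrogenase gene Adh1 averaged 382 and 138 (2.52-fold, adjusted p = 0.0106). The fibroblast marker sum moved with these genes, and its part in them was not tested.

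Nab2, a corepressor that binds EGR factors and is itself induced with them, read 910, 584.5 and 650 at 4 h against 326, 298 and 269 in maintained cultures, 2.30-fold higher (adjusted p = 0.00174). Nab2 averaged 446 after withdrawal, 576 at 2 h, 715 at 4 h and 393 at 8 h. The linker histone gene H1f2 averaged 981 at 4 h and 402 in maintained cultures (2.38-fold higher, adjusted p = 0.000824), and the histone demethylase gene Kdm6b averaged 2220.2 and 1379 (1.60-fold, adjusted p = 0.0327). At 8 h their means were 583 and 1501, and neither was called against maintained cultures (log2 difference 0.51, adjusted p = 0.119 for H1f2, and 0.12, adjusted p = 0.684 for Kdm6b), although all 3 of the 8 h arrays of H1f2 lay above its maintained arrays. Penk, which encodes proenkephalin, read 108, 151 and 99.4 at 4 h against 231, 241 and 209, 1.81-fold lower (adjusted p = 0.0327), and averaged 212 at 8 h.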
